A study of Mus musculus with 12 samples.

Results

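Mouse embryonic stem (ES) cells that can lose Thap11, which codes for the DNA-binding protein Ronin, were compared with control cells after 1.5 days of tamoxifen, the earliest of 3 sampling times. The comparison rests on 4 of the 12 arrays in the series, chosen by their titles: knockout day 1.5, replicates 1 and 2, and control day 1.5, replicates 1 and 2. Control cells had the genotype Roninflox/flox, in which both alleles carry target sites for Cre recombinase. Knockout cells had the genotype CreERT2; Roninflox/flox, and their CreERT2 is a Cre fused to an oestrogen receptor domain, which becomes active once tamoxifen binds. Every sample received tamoxifen at 0.25 µM after plating at 100000 cells per 10 cm2. Cultures kept to day 6 were split on day 4, so the day 1.5 samples were collected before any split. The other 8 arrays are the same 2 genotypes on days 3 and 6, with 2 arrays in each group.

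All knockout samples and none of the control samples had CreERT2. Effects of the recombinase, or of differences between the cell lines that do not involve Ronin, therefore cannot be told apart from effects of losing Thap11. The labels do not give the promoter that drives CreERT2, the number of clones behind each line, or whether replicates were separate cultures, so p-values measure only the spread between arrays, which may be technical. All 18194 genes with a probe set of their own were tested, each through its brightest probe set. Values are RMA-normalized Affymetrix intensities, and differences are knockout minus control on the log2 scale. A gene was called when its adjusted p was at most 0.05 in a limma model of all 12 arrays. Over the 18194 genes tested, replicate arrays of day 1.5 correlated at 0.998 in both genotypes. The SD of the log2 difference between replicates over these genes was 0.155 in the controls and 0.149 in the knockouts.

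Ronin binds promoters through its THAP zinc finger and works with the cofactor HCF-1, which recruits enzymes that modify chromatin. The sequence it recognises is shared with the transcription factor ZNF143 and lies close to the start of many genes of mitochondria, translation and metabolism. Ronin is needed for the growth of ES cells, and Mmachc, a gene of vitamin B12 processing, is a well known direct target. After an acute deletion, RNA and protein made earlier fade with their own lifetimes, so an early sample can be taken while some product remains.

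The promoters of genes that differed early were searched for the letters ACTACANNTCCC, or GGGANNTGTAGT on the other strand. The search covered 250 bases before to 50 bases after the start in RefSeq's promoter table (GRCm38.p6), which held 14369 of the 18194 genes. The stretches printed here carry the motif, in capitals, in promoters of genes that were called on day 1.5, and each is written along its gene's strand.
Mmachc: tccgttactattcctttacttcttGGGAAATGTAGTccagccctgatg
Ube2d1: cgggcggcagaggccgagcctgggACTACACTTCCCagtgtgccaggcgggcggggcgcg
Zc4h2: tggccttctGGGAGTTGTAGTtctagaggc
Ctu1: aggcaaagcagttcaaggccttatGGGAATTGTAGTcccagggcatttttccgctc
Cox7c: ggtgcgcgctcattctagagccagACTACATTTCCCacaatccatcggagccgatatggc
Zfp607b: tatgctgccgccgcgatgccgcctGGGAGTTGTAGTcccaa
Cbr4: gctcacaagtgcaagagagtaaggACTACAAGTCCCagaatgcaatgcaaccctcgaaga
Cyb561d2: ctgcattctGGGATTTGTAGTcttcctcct

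In the order printed, the stretches lie at chr4:116708386-116708433, chr10:71285288-71285347, chrX:95658490-95658519, chr7:43671975-43672030, chr13:86046881-86046940, chr7:27674620-27674660, chr8:61487640-61487699 and chr9:107541852-107541881. Ctu1, Zfp607b and Cbr4 are on the plus strand and the other five on the minus strand. The first 5 genes were lower on day 1.5 and fell further by day 6. Zfp607b was lower by a similar amount on all 3 days, Cbr4 was higher on day 1.5 and lower later, and Cyb561d2, chosen after its values were seen, was higher on day 1.5 and higher still later. The motif overlaps the start in Cyb561d2 and Zc4h2.

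Thap11 itself was still readable in the knockout cells. Its intensity was 1262 and 1181 on the control arrays and 327 and 354 on the knockout arrays of day 1.5. The groups did not overlap, and the log2 difference was -1.84 (SE 0.08, limma adjusted p = 1.2e-05), which leaves 27.9% of the control level. On day 3 the knockout arrays read 110 and 92.7, against 1279 and 1290 in the controls, and on day 6 they read 50.6 and 51.5, against 1305 and 1382. The labels do not say which part of the gene is flanked, so whether the probe set lies inside it is not given. In bulk samples, fewer cells with the transcript and less transcript per cell cannot be told apart. Hcfc1, which encodes HCF-1, read 2587 and 2494 in controls and 2367 and 2234 in knockouts (log2 difference -0.14, adjusted p = 0.29).

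The cells carried the marks of ES cells in both genotypes. Pou5f1, which encodes the pluripotency factor Oct4, read 11586 and 11454 in controls and 11421 and 11406 in knockouts. Nanog read 5495 and 5731 against 5279 and 5406, and Sox2 read 7422 and 8787 against 8973 and 8757. None of these 3 genes passed the test, with log2 differences of -0.01, -0.07 and 0.13. The summed intensity of 15 fibroblast or feeder cell markers was 608 to 628 in controls and 510 to 528 in knockouts, its brightest member being Thy1 and its dimmest Col3a1. Cav1 and Thy1 were the members called, both lower, and the part of feeder cells in other results was not tested.

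By day 1.5, 1079 genes were higher in the knockout (5.93% of genes tested) and 724 were lower (3.98%). Most differences were small: the median size among the 1803 calls was 0.36 on the log2 scale, and only 19 genes rose and 30 fell at least 2-fold. The calls rested on 2 arrays a group, and without any single day 1.5 array between 714 and 833 genes were called. Across those 4 fits 472 genes were called every time, 262 higher and 210 lower.

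The text names 115 called genes, and 68 of them kept their call without any single array. The calls of 20 were lost when any of the 4 was left out: Cenpf, E2f2, Eda2r, Edc4, Galm, Hsph1, Mcoln1, Mrpl19, Ndn, Neto2, Olig2, Plk2, Pramel6, Sox1, Spred1, Tex19.1, Thap3, Tpx2, Uqcr10 and Wdr12. Another 27 were lost without some of the arrays. Without control replicate 1 or either knockout array, these were 1110004F10Rik, AF067061, Ifit2, Nr5a2, Sox17, Sp5, Spred2 and Tgfb1i1, and without control replicate 2 or either knockout array, Cox7a1, Crxos, Ctsl, Gins4 and Perp. Cyb561d2 and Mvd needed every array but knockout replicate 1. Bckdk, Cdkn1a and Thy1 needed the first replicate of both genotypes, Cbr4, Igf2 and Neu1 the second of both, P4ha2 control replicate 1 and knockout replicate 2, Fyco1 and Ier5 control replicate 2 and knockout replicate 1, and Atf3, Notum and Ptpn21 knockout replicate 2. The rule for naming genes also picked called list members that the text leaves out. Each of those lost its call without at least 1 day 1.5 array. The share of calls that held is therefore higher among the genes named than under the full rule.

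Of the same 115 genes 64 had other probe sets, which were called in the same direction for 20 and not at all for 43, while Xaf1 had one called in the opposite direction. With the mean of all probe sets 23 calls were lost: Ankrd1, Cdkn1b, Cenpf, Ctsl, Fyco1, Galm, Ier5, Igf2, Mcoln1, Mrpl54, Ndn, Neto2, Neu1, Plk2, Ptpn21, Sox1, Sox7, Spred2, Tbx3, Tpx2, Wdr12, Xaf1 and Zfp334.

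The 12 largest rises spanned log2 differences of 1.10 to 3.53. Ubd, which encodes a ubiquitin-like protein induced by interferon and inflammatory signals, read 25.6 and 23.3 in controls and 270 and 294 in knockouts (log2 difference 3.53, SE 0.20, adjusted p = 3.7e-05). Galc, a lysosomal enzyme that breaks down myelin lipids, rose from 16.6 and 20.3 to 117 and 103 (2.58, SE 0.21), although its 2 other probe sets gave 0.04 and 0.06. Gt(ROSA)26Sor, the transcript of a locus often used to insert transgenes, read 240 and 226 in controls and 1107 and 1002 in knockouts (2.18, SE 0.10, adjusted p = 1.2e-05). The labels do not say where CreERT2 was inserted. Caps2 (1.96), Mrc1, the macrophage mannose receptor (1.84), Prex2, an activator of Rac (1.82), Fxyd6, a regulator of the sodium pump (1.62), and St8sia1, a ganglioside synthase (1.50), followed. Kbtbd11 (1.30), Ttc8, a protein of the primary cilium (1.29), Trim30d (1.22) and Crxos (1.10) completed the group. Crxos was dim, at 12.6 to 17.7 in controls and 28.6 to 36.1 in knockouts, and lost its call without control replicate 2 or without either knockout array. The other 11 kept theirs without any single array. Other probe sets did not always pass: those of Kbtbd11 gave -0.06 to 0.13, that of Prex2 0.10, that of Trim30d 0.33, that of Crxos 0.12 and that of Caps2 0.37, none called. Both other probe sets of St8sia1 were called higher, at 0.93 and 1.29.

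The 12 largest falls were led by Ccnb1ip1, a protein of meiotic crossover, which read 905 and 864 in controls and 163 and 172 in knockouts (-2.40, SE 0.05, adjusted p = 1.2e-07). Tesc, a calcium-binding protein, went from 737 and 721 to 205 and 192 (-1.88, SE 0.07). Thap11 had the next largest fall. Acta2, smooth muscle actin, read 726 and 684 against 244 and 219 (-1.61, SE 0.11), with -0.21 and -0.14 from its 2 other probe sets. Xaf1 (-1.58) had a second probe set that rose by 1.61 and was called, so its direction is unsettled. Zfp607b, a zinc finger gene, read 141 and 150 against 48.9 and 58.5 (-1.44, SE 0.18). Gbp2, an interferon-induced GTPase (-1.40), Fos (-1.33), Ccnd2 (-1.28), Samd4 (-1.26), Bmper (-1.26) and Emp1 (-1.24) made up the rest. The call of each of the 12 held without any single array. The other probe set of Emp1 gave -0.16 and those of Samd4 gave -0.29 to 0.09, none called.

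**Figure D1:**
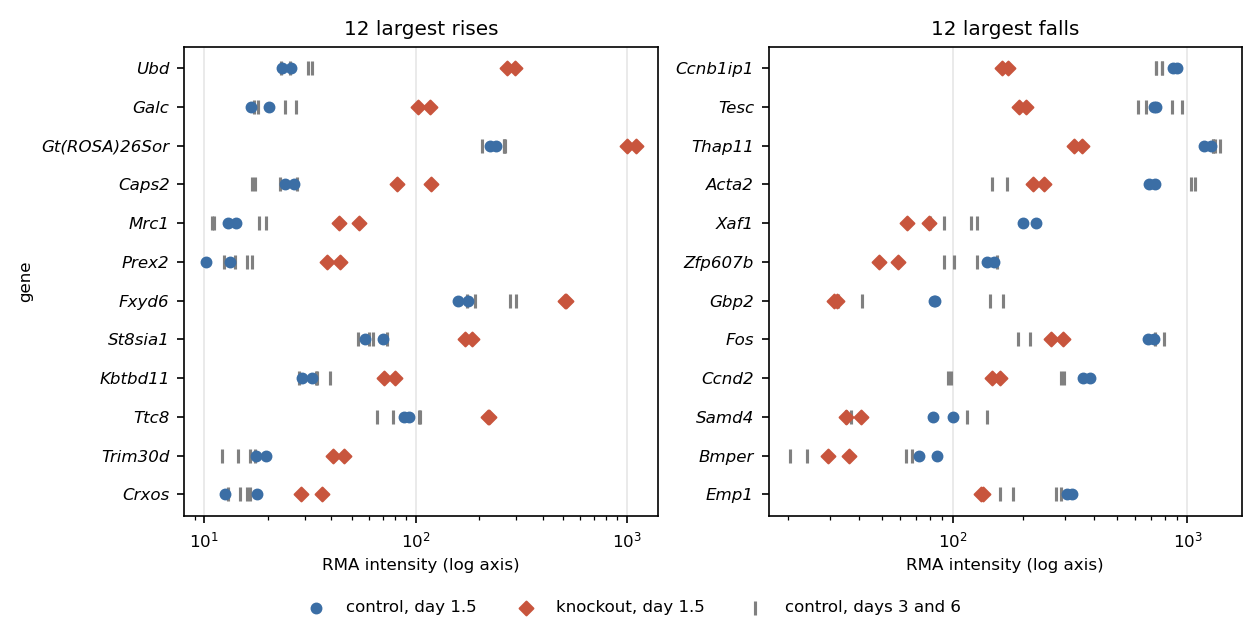
RMA intensity on each array (x, log axis) of the 12 genes that rose most and the 12 that fell most on day 1.5. Circles are control arrays and diamonds knockout arrays of day 1.5, and grey ticks are control arrays of days 3 and 6. The knockout diamonds lie outside the day 1.5 controls for every gene, as the selection required. For Acta2, Fos, Ccnd2, Samd4 and Bmper they lie within the span of all control arrays.

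Levels also moved with time in the control cells, which sets another scale for these differences. Both knockout arrays of day 1.5 lay above all 6 control arrays for 827 of the 1079 higher genes (76.6%), against 13.0% of all genes. They lay below all 6 control arrays for 418 of the 724 lower genes (57.7%), against 7.77% of all genes. These 6 include the day 1.5 controls that the calls used. Selection therefore raises both shares, and their excess over all genes is no test. Acta2 was one of those inside the control range: controls of day 3 read 171 and 147, below the knockout arrays of day 1.5, and controls of day 6 read 1034 and 1076. Fos, part of the AP-1 transcription factor, read 721 and 677 in controls of day 1.5, 296 and 262 in knockouts, and 213 and 191 in controls of day 3. Ccnd2, cyclin D2, read 384 and 360, then 159 and 147, and 98.3 and 95.3 in the same groups. On days 3 and 6 Acta2 was higher in the knockout, by 0.66 and 0.60, and so was Ccnd2, by 1.39 and 0.51. Fos differed by 0.09 on day 3 (adjusted p = 0.49) and was lower again on day 6, at -0.72.

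Several gene lists held genes of this kind. Counts in the lists below are read beside the 5.93% of all genes that were higher and the 3.98% that were lower. Of 15 basement membrane genes, which build and modify the collagen and laminin sheet laid down by extraembryonic endoderm, 9 were called and all 9 were lower, with a median of -0.31 beside 0.00285 over all genes. Col4a1, a chain of type IV collagen, read 1709 and 1698 in controls and 988 and 998 in knockouts (-0.78). Col4a2 (-0.67), Lama1 (-0.55) and P4ha2, a collagen prolyl hydroxylase (-0.50), were also lower, while Fn1 (-0.02) and Lamc1 (-0.18) did not pass. Only 2 of the 9 lay below every control array, and 11 of the 15 were called lower in day 3 than in day 1.5 controls, where 18.2% of all genes were, a contrast that uses the same day 1.5 control arrays.

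Primitive endoderm regulators and receptors gave 4 calls among 16, all lower (median -0.24). Gata6, the transcription factor that drives this lineage, read 117 and 103 in controls and 59.6 and 57.3 in knockouts (-0.91), and 46.5 and 55 in controls of day 3. Srgn (-0.97), Sox7 (-0.72) and Sox17 (-0.70) were lower too, and all 4 lay inside the control range. The 2 other probe sets of Gata6 gave -0.03 and 0.04, and the other one of Sox7 gave 0.20, none of them called. Sox7 lost its call with the mean of its probe sets, and Sox17 lost its call when control replicate 1 or either knockout array was left out. The summed intensity of the 16 genes was 2309 to 2342 in controls and 1715 to 1751 in knockouts. Of 23 SRF and YAP target genes, which report tension in the actin skeleton, 8 were called, all lower (median -0.22) and all inside the control range. Tagln read 760 and 745 against 377 and 396 (-0.96), and Tgfb1i1 (-0.68) and Ankrd1 (-0.66) were lower with Acta2. In controls, 18 of these 23 genes were called lower on day 3 than on day 1.5, beside the same 18.2% of all genes.

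Primed epiblast genes, which mark the step after naive pluripotency, gave 5 calls among 15, all lower (median -0.12). Otx2 read 590 and 600 in controls and 345 and 319 in knockouts (-0.84), Pou3f1 read 707 and 715 against 395 and 405 (-0.83), and Fgf5 read 23 and 24.2 against 13.3 and 13.1 (-0.84). Those 3 lay below every control array, while Lef1, a nuclear effector of Wnt signalling (-0.78), did not. Fgf5 was dim on these arrays, and its other probe set was not called. On day 3 Otx2, Pou3f1 and Fgf5 differed by -0.20, 0.06 and 0.26, none of which passed. Of 12 Wnt target genes 5 were lower and 1 higher (median -0.17): Lef1, Bmp4 (-0.52), Sp5 (-0.49) and Notum (-0.45) fell. Only 1 of these Wnt calls lay outside the control range. Against the mean of the controls of all 3 days, Sp5 and Notum lost their calls and Bmp4 turned direction. Of 19 immediate early genes, which answer growth signals within minutes, 5 were called, all lower (median -0.15), among them Fos, Atf3 (-0.69), Ier5 (-0.53) and Jun (-0.52).

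Among 22 naive and core pluripotency genes 4 were lower and 3 higher (median 0.031). Prdm14, a repressor that guards the naive state, read 563 and 575 in controls and 367 and 360 in knockouts (-0.65). Klf4 (-0.42) and Nr5a2 (-0.36) were lower, and Tbx3 read 815 and 891 against 1223 and 1207 (0.51). The 4 other probe sets of Tbx3 gave -0.15 to 0.37 with none called, and its call was lost with the mean of all its probe sets. Tbx3 and Klf4 kept their differences, at 0.57 and -0.40 on day 3 and 0.53 and -0.44 on day 6. Nr5a2 was called higher on both later days, at 0.63 and 0.58. Of 12 primitive streak and mesoderm genes Lefty2, an inhibitor of Nodal signalling, was the call (-0.62), and of 7 neural genes Sox1 (0.41) and Olig2 (0.24) were called higher, both calls being lost when any of the 4 arrays was left out. The 9 trophoblast genes had a median of 0.033, and their brightest member, Tfap2c, was at 0.01 (adjusted p = 0.96).

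**Figure D2:**
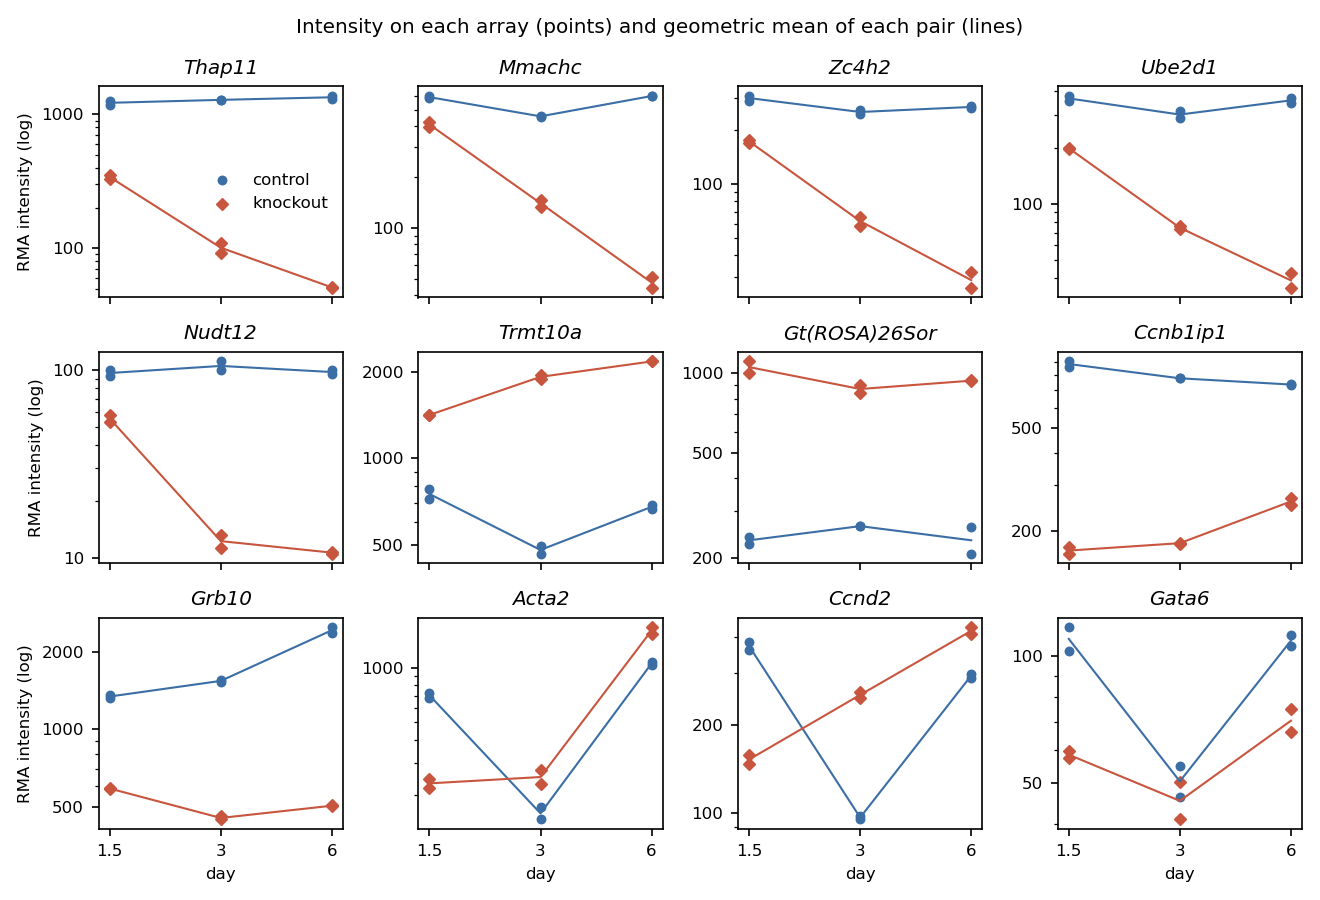
RMA intensity (y, log axis, scaled to each gene) of 12 genes on days 1.5, 3 and 6 (x, equally spaced). Points are single arrays and lines join the geometric mean of each pair, with controls as circles and knockouts as diamonds. Thap11, Mmachc, Zc4h2, Ube2d1 and Nudt12 part further with time, Gt(ROSA)26Sor, Ccnb1ip1 and Grb10 differ strongly from day 1.5 on, and the controls of Acta2, Ccnd2 and Gata6 dip on day 3.

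The genes that differed on day 1.5 were followed in the arrays of days 3 and 6, which share no array with day 1.5. The calls are still not independent, since the fit uses the same estimate of a gene's spread on all 3 days. A gene with a small estimate passes more easily on each day, which raises the shares called again. Of the 1079 higher genes, 437 (40.5%) were called higher on day 3, where 13.3% of all genes were, and 555 (51.4%) on day 6, where 17.2% were. Of the 724 lower genes, 262 (36.2%) were called lower on day 3 against 10.0% of all genes, and 363 (50.1%) on day 6 against 15.3%. The opposite direction was called on day 6 for 146 of the higher and 125 of the lower genes. On all 3 days, 336 genes were higher and 215 lower, and over all genes 7.22% were higher and 5.63% lower on both later days. Another 242 higher and 153 lower genes were called on neither later day. Genes picked for a large value on day 1.5 tend to give smaller values in new arrays, which bears on every shrinking difference described here.

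Among the 1803 calls, the test of the day 6 difference minus the day 1.5 difference found 268 whose difference had grown in its own direction, 157 higher and 111 lower. It found 589 that had shrunk or turned, 335 higher and 254 lower. Over all genes this contrast called 9.32% upwards and 10.0% downwards.

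The genes whose fall grew most were, beside Thap11, Mmachc, Galm, 1110004F10Rik, Zc4h2 and Nudt12. Mmachc, which processes vitamin B12 inside the cell, read 599 and 587 in controls and 393 and 424 in knockouts on day 1.5 (-0.54, SE 0.08, adjusted p = 0.0037). Its difference was -1.71 on day 3 and -3.66 on day 6, where the knockout arrays read 51.1 and 44.1. Zc4h2, a zinc finger gene of the X chromosome, went from 292 and 311 to 176 and 169 on day 1.5 (-0.80), then to -2.02 and -3.21. Nudt12, an enzyme that cleaves NADH and NAD caps of RNA, read 93.4 and 99.4 against 57.5 and 52.8 (-0.81), and reached -3.09 by day 3. 1110004F10Rik, read at 1762 and 1572 against 1261 and 1264 (-0.40), reached -2.88. Galm, an aldose mutarotase, differed by -0.27 (adjusted p = 0.049), the smallest of these, and its call was lost when any of the 4 arrays was left out. It reached -2.93 by day 6.

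Ube2d1, a ubiquitin-conjugating enzyme, read 354 and 379 in controls and 199 and 198 in knockouts (-0.89, SE 0.09), then -2.01 and -3.20 on days 3 and 6. Ctu1, which adds sulfur to the wobble base of transfer RNAs, read 287 and 277 against 172 and 196 (-0.62) and reached -2.90. Cox7c, a subunit of cytochrome c oxidase, read 486 and 543 against 293 and 240 (-0.95) and reached -2.03. Its probe set can also read related sequences, and its second probe set gave -0.64 without passing. Uqcr10, a subunit of complex III, read 4305 and 4061 against 3403 and 3510 (-0.27) and reached -2.27, but its day 1.5 call was lost when any of the 4 arrays was left out. Ifit2, Zfp334 and Bckdk, the kinase that restrains branched-chain amino acid breakdown, were at -0.70, -0.84 and -0.41 on day 1.5 and -2.23, -2.23 and -2.38 on day 6. Zfp334 and Bckdk were chosen after their values were seen.

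Among the sets of genes compared, the motif was commonest in promoters of genes that fell early and went on falling. It was present in 493 of 14369 promoters tested (3.43%), in 45 of 580 lower on day 1.5 (7.76%), and in 47 of 867 higher on day 1.5 (5.42%). Of the 86 genes with a promoter that were lower on day 1.5 and fell further by day 6, 31 held it (36.0%, exact 95% interval 26 to 47.1, which covers counting error only). Of 494 lower genes with no growth called, 14 held it (2.83%), and of 198 whose difference shrank or turned, 1 did (0.505%). For comparison, 124 of 1015 genes (12.2%) held it among those not called on day 1.5 that were lower on day 6 with a significantly larger fall. The share among lower genes that fell further was 37.1 to 45.2% without any single day 1.5 array, when 33 to 42 such genes remained. It was in 0 of the 15 promoters of genes higher by at least 2-fold, and 1 of the 24 lower by at least 2-fold did, Zfp607b. Of the 31 promoters, 18 had a match centred within 100 bases before the start, and the match nearest the start lay at a median of -67. A match describes these letters and shows no binding.

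Genes that rose early and went on rising held the motif in 21 of 126 promoters (16.7%), against 26 of 741 higher genes with no growth called (3.51%). Among genes not called on day 1.5 that were higher on day 6 with a significantly larger rise, 38 of 966 held it (3.93%). Fyco1, an adaptor of autophagosome transport chosen after its values were seen, read 104 and 97.3 in controls and 153 and 133 in knockouts (0.51), then 1.47 and 2.18. Cyb561d2, a cytochrome b561 family member, read 243 and 248 against 285 and 324 (0.31), then 1.65 and 1.49. Cenpt, a kinetochore protein encoded beside Thap11, read 1432 and 1360 against 1965 and 1986 (0.50), then 0.43 and 0.78. Trmt10a, a transfer RNA methyltransferase whose promoter window did not hold the letters, rose from 781 and 724 to 1414 and 1419 (0.91), then to 2.00 and 1.68. Elp6, of the Elongator complex that modifies transfer RNAs, rose from 495 and 492 to 769 and 831 (0.70), then to 1.67 and 1.20. Elp6 was not among the 21 genes with the motif.

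**Figure D3:**
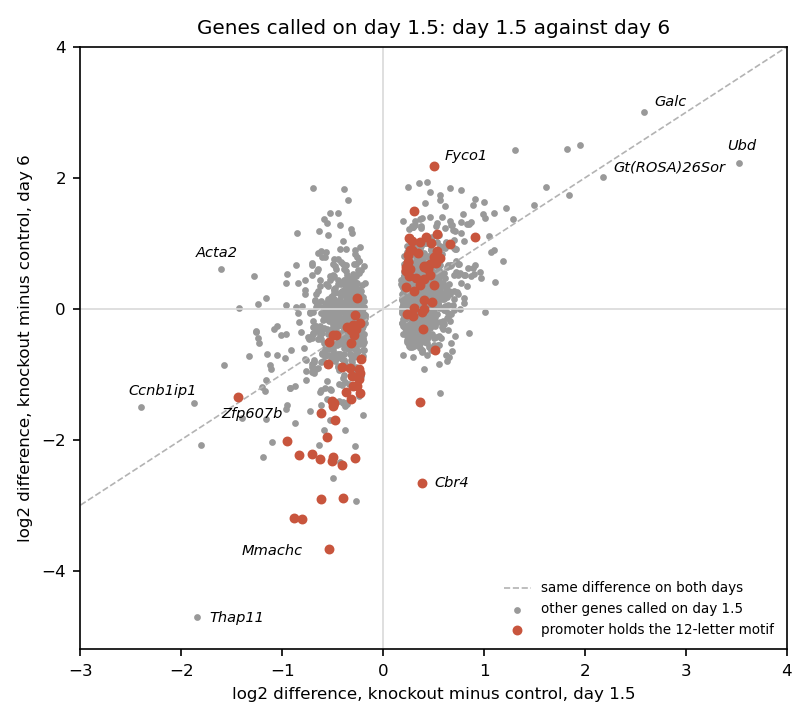
Log2 difference, knockout minus control, on day 1.5 (x) against day 6 (y) for the 1803 genes called on day 1.5. Red points are the 92 genes whose RefSeq promoter window holds the 12-letter motif, grey points are all others, including genes with no promoter in the table, and the dashed line marks equal differences. Red points gather below the line on the left, where 31 of the 111 genes that fell further hold the motif, and Thap11 and Mmachc lie lowest.

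Cbr4, a mitochondrial reductase of fatty acid synthesis on chromosome 8, showed the largest loss of its early difference. It read 447 and 439 in controls and 571 and 586 in knockouts on day 1.5 (0.38, adjusted p = 0.01), then -1.38 on day 3 and -2.66 on day 6. Its day 1.5 call was lost without control replicate 2 or knockout replicate 2. Spink1, a protease inhibitor, turned from -0.70 to 1.84, AF067061 from -0.39 to 1.83, Acta2 from -1.61 to 0.60, Neto2 from -0.34 to 1.66 and Hipk2, a stress kinase, from -0.86 to 1.15. In the controls Spink1 read 453 and 513 on day 1.5, 88 and 76.8 on day 3, and 312 and 318 on day 6, so its control arrays moved as well.

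A further 260 genes were called on all 3 days with a day 6 difference within 0.25 of that on day 1.5. The largest of these were Gt(ROSA)26Sor (2.18, 1.73 and 2.01 on days 1.5, 3 and 6), Mrc1 (1.84, 1.52 and 1.74), Fxyd6 (1.62, 0.73 and 1.86), St8sia1 (1.50, 1.32 and 1.58), Zfp607b (-1.44, -1.03 and -1.35) and Ttc8 (1.29, 1.36 and 1.37). Differences that were already large and then narrowed included Ccnb1ip1 (-2.40, -2.12 and -1.50) and Tesc (-1.88, -1.91 and -1.44). Grb10, a brake on growth factor receptors, read 1359 and 1324 against 586 and 590 (-1.19), then -1.77 and -2.27. Peg3 read 5521 and 5588 against 2719 and 2628 (-1.06), then -0.57 and -0.70. Of 24 imprinted genes 4 were lower and 3 higher (median -0.087), with Igf2 at 0.41 and Ndn at -0.28.

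Galc and Ttc8 lie in the same stretch of chromosome 12, a fact noticed after their values were seen. The 12 tested genes from Galc to Efcab11 included 4 that were called on day 1.5, all higher. Efcab11 read 48.1 and 47.7 in controls and 104 and 101 in knockouts (1.10), and Ptpn21 rose by 0.33. Galc, Ttc8 and Efcab11 were higher on all 3 days, while the other eight differed by -0.17 to 0.20.

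Chromosomes 8 and X stood apart from the rest. Chromosome 8, which carries Thap11, held 224 of the higher genes, 20.8% of them, with 5.12% of the genes tested, and 24.03% of its genes were higher against 5.93% overall. Only 10 of its 932 genes were lower. The X chromosome held 147 of the lower genes, 20.3% of them, with 3.39% of the genes tested, and 23.8% of its genes were lower against 3.98% overall. The median difference was 0.129 on chromosome 8 and -0.132 on X, while the other 18 chromosomes lay between -0.020 and 0.028. With the dimmest 40% of genes left out the medians were 0.197 and -0.194, and 89.8% of the remaining genes of chromosome 8 were above 0. Of the calls, 196 of 234 on chromosome 8 and 134 of 164 on X differed by under 0.5.

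The shift ran along the whole of each chromosome. In 8 consecutive blocks of brighter genes the medians were 0.169 to 0.224 on chromosome 8 (76 or 77 genes each) and -0.235 to -0.092 on X (45 or 46 genes each). Around Thap11, Ranbp10 (0.08) and Tsnaxip1 (-0.20) on one side did not pass and Cenpt (0.50) did. On the other side Edc4 (0.26) and Pskh1 (0.57) were higher, and Nrn1l (0.21) did not pass. Xist, the RNA that silences an X chromosome, read 315 and 306 in controls and 340 and 261 in knockouts (-0.06, adjusted p = 0.86). The Y-linked genes Eif2s3y and Uty read 8.24 to 13.4 on the 4 arrays, near the lowest intensities of these arrays.

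The level of each chromosome was also taken on each array, relative to the other autosomes. On chromosome 8 the day 1.5 controls were at -0.084 and -0.101 and the knockouts at 0.079 and 0.087. Day 3 controls were at -0.083 and -0.082 and knockouts at -0.0067 and 0.013, and day 6 controls were at -0.012 and -0.016 and knockouts at 0.097 and 0.101. Both genotypes therefore moved between days, and the knockout arrays were above the controls of their own day on each. On X the day 1.5 controls were at 0.045 and 0.052 and the knockouts at -0.134 and -0.148. Day 3 controls were at 0.134 and 0.136 and knockouts at 0.047 and 0.060, and day 6 controls were at 0.024 and 0.020 and knockouts at -0.098 and -0.102. DNA copy number was not measured, and the part of chromosome number in these shifts was not tested.

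**Figure D4:**
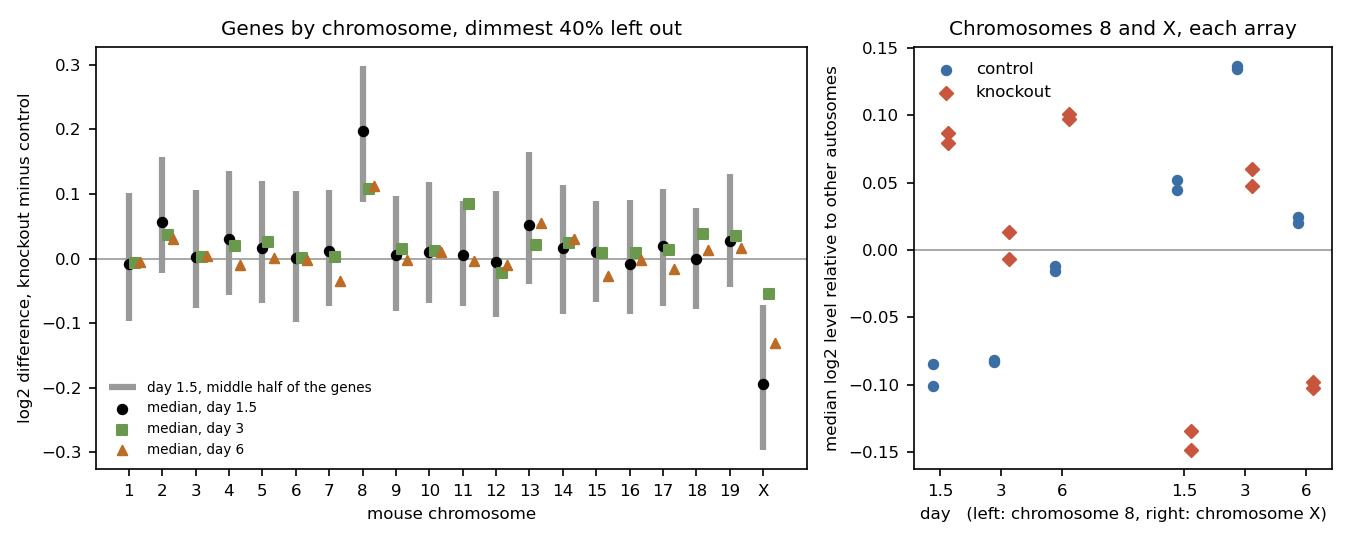
Left, median log2 difference, knockout minus control, of the genes of each mouse chromosome on days 1.5, 3 and 6, with the dimmest 40% of genes left out and the interquartile range of day 1.5 as a grey bar. Right, median log2 level of chromosome 8 and chromosome X on each array relative to the other autosomes, with each gene centred on its mean over 12 arrays. Chromosome 8 is high and X low on day 1.5, at 0.197 and -0.194.

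With chromosomes 8 and X left out, 1280 genes were called, all of them among the 1803, and 59 lower genes with a promoter had grown by day 6, of which 45.8% held the motif. Of the 472 genes called without any single array, 56 were higher genes of chromosome 8 and 41 were lower genes of X.

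Interferon-stimulated genes moved in both directions. Of 30 measured, 4 were higher and 7 lower (median 0.047), and all 11 lay outside the control range. Ubd rose, while Gbp2 read 83.2 and 84 against 32.1 and 31.3, Ifit2 read 118 and 100 against 65.4 and 68.4, and Xaf1 had the opposed second probe set. Of 22 p53 target genes 5 were lower and 1 higher (median -0.043). Cdkn1a (p21, a brake on cyclin-dependent kinases) read 1280 and 1192 in controls and 875 and 961 in knockouts (-0.43, adjusted p = 0.012), a call lost without control replicate 1 or knockout replicate 1. Perp (-0.29), Plk2 (-0.26) and Eda2r (-0.24) were lower on day 1.5 and, with differences of 0.53, 0.79 and 0.55, higher on day 6. The calls of Plk2 and Eda2r on day 1.5 were lost when any of the 4 arrays was left out, and that of Perp without control replicate 2 or either knockout array.

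Of 19 G1 and S phase regulators 3 were lower and 3 higher (median 0.0077). Cdkn2a, which encodes p16 and p19Arf, rose from 127 and 132 to 246 and 258 (0.96), Cdkn1b, which encodes p27, rose from 307 and 298 to 401 and 439 (0.47), and E2f2 was at -0.46 beside Ccnd2. Of 26 DNA replication genes 3 were higher (median 0.046), led by Gins4 of chromosome 8 at 0.25. Of 21 mitosis genes Tpx2 (0.24) and Cenpf (0.20) were higher (median -0.0028).

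Counts in gene classes linked with Ronin are read beside the 5.93% of all genes that were higher and the 3.98% that were lower. Of 90 respiratory chain genes 4 were lower and 1 higher (median -0.017), with Ndufa1, encoded on X, at -0.31 beside Cox7c and Uqcr10, and Cox7a1 at 0.39. Of 76 mitochondrial ribosome genes 2 were lower and 1 higher (median -0.018). Mrpl54 read 752 and 785 against 607 and 574 (-0.38) and went to -0.99 and -1.49, while Mrpl19 was at 0.33. Of 19 transfer RNA modification genes 3 were higher and 1 lower (median 0.015). Of 16 cobalamin and one-carbon genes Mmachc was the call, of 33 ubiquitin-conjugating enzymes 1 was higher and 2 lower, and of 39 cytosolic ribosomal protein genes 2 were lower, led by Rps25 (-0.55). Of 18 genes of Ronin, HCF-1 and their partners, Ash2l, a subunit of histone methyltransferases encoded on chromosome 8, was higher (0.48) and Thap3 lower (-0.19, adjusted p = 0.043, a call lost when any of the 4 arrays was left out). Thap11 is not counted among these 18.

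The stress and metabolic lists are read beside the same 5.93% and 3.98% of all genes. Of 24 integrated stress response genes 3 were called, all lower (median -0.081), with Stc2 at -0.45. All 3 calls were lost when only the arrays of day 1.5 were fitted. Of 20 lysosome genes 7 were higher and 1 lower (median 0.095), 2 of the 7 on chromosome 8. Only 3 of these calls lay outside the control range. In controls, the median of the list was 0.22 higher on day 3 than on day 1.5. The median difference between knockout and control was -0.14 on day 3 and 0.25 on day 6. Beside Galc, Neu1, a sialidase, was at 0.52, Mcoln1, a calcium channel of lysosomes, at 0.26, and Ctsl at 0.25, which its second probe set opposed at -0.53 without passing. Of 19 cholesterol synthesis genes 4 were higher and 1 lower (median 0.074), with Tm7sf2 at 0.42, Mvd at 0.32 and Ebp, encoded on X, at -0.66. Of 19 glycolysis and hypoxia genes 1 was higher and 2 lower (median -0.0051). Of 19 germline and meiosis genes 3 were called, all lower (median -0.054), namely Ccnb1ip1, Syce1 (-0.52) and Tex19.1 (-0.28). Syce1 and Tex19.1 were higher on day 6, at 1.47 and 0.84, and Pramel6, the call among 7 genes of the 2-cell-like state, was at 0.46 on day 1.5 and 1.79 on day 6. Of 12 ERK feedback genes Spred1 (0.23) and Spred2 (0.26) were higher, of 10 heat shock genes Hsph1 (-0.24) was lower, and of 29 ribosome biogenesis genes Wdr12 (0.19) was higher. The 6 measured genes of X inactivation and the Y chromosome had a median of -0.045, with Tsix at 0.18 (adjusted p = 0.31).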

How the data were processed

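RNA of 12 mouse ES cell samples was measured on Affymetrix arrays, 4 of them of day 1.5. The authors deposited 1 intensity per probe set and array, on a linear scale, and per the submitters' processing notes these come from RMA (background correction, quantile normalization and probe set summary), whose version is not given in the sources used here. RMA sets all arrays to 1 distribution, so a change of total RNA is not measured, and array number limits the precision.

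The log2 of these deposited intensities was taken. Of 45101 probe sets, 34958 carried 1 gene symbol in GEO's platform annotation, 932 several and 9211 none. Each of 18194 symbols was represented by the probe set with the highest mean over 12 arrays, and 34754 probe sets matched a RefSeq gene ID. Chromosome numbers, gene order and promoters came from RefSeq.

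Group means were fitted to all 12 arrays with limma 3.58.1 in R 4.3.3 (6 residual and 3.04 prior degrees of freedom), with Benjamini-Hochberg adjustment over all genes and a threshold of 0.05. The code was tested on simulated data. Other steps used Python 3.11.15 with pandas 2.3.3, numpy 2.4.6 and matplotlib 3.10.9. The labels do not say whether replicate numbers pair the samples, so the main fit used no pairing. Deviations of same-numbered control and knockout arrays of day 1.5 correlated at -0.0038. Those of day 1.5 and day 3 controls correlated at 0.17, the largest value between any pair of groups.

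Named genes are the 12 largest rises and falls whose arrays do not overlap (unnamed clones left out), up to 4 called and the 2 brightest other members of each of 34 lists, the 6 whose difference grew, shrank or stayed most, the 3 neighbours on each side of Thap11, and Thap11, Hcfc1, Mmachc, Pou5f1, Nanog, Sox2, Cdkn1a and Gt(ROSA)26Sor. Some list members that this rule picked are not described. Genes outside this rule are said to be chosen after their values were seen. The comparison, the lists and the motif were chosen with earlier results of these data known.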

Additional observations from a re-analysis of the deposited data

Results flagged for a closer look

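The difference between knockout and control changed between day 1.5 and day 6 for many of the genes named, by the limma test of the day 6 difference minus the day 1.5 difference (adjusted p at most 0.05 over all genes), whose log2 value is given in brackets. Of the 1803 genes called on day 1.5, 268 had grown in their own direction, and 75 of the 130 genes named in the text passed this test in either direction.

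Among genes lower on day 1.5, the fall deepened for Mmachc (-3.12), Thap11 (-2.88), Galm (-2.67), 1110004F10Rik (-2.48), Zc4h2 (-2.41), Nudt12 (-2.38), Ube2d1 (-2.31), Ctu1 (-2.29), Uqcr10 (-1.999), Bckdk (-1.98), Ifit2 (-1.52), Zfp334 (-1.39), Bmp4 (-1.18), Mrpl54 (-1.11), Grb10 (-1.08), Cox7c (-1.07), Lefty2 (-0.85), Stc2 (-0.43) and Thap3 (-0.31). Among genes higher on day 1.5, the rise grew for Fyco1 (1.68), Pramel6 (1.33), Sox1 (1.21), Cyb561d2 (1.19), Kbtbd11 (1.13), Trmt10a (0.77), Igf2 (0.60), Elp6 (0.50), Mcoln1 (0.46), Spred1 (0.30) and Cenpt (0.28).

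The fall narrowed, or was lost without a call in the opposite direction on day 6, for Col4a1 (1.00), Samd4 (0.93), Bmper (0.90), Ccnb1ip1 (0.90), Col4a2 (0.89), Tgfb1i1 (0.81), Emp1 (0.78), Otx2 (0.77), Sox7 (0.67), Atf3 (0.64), Pou3f1 (0.63), Fos (0.61), Ier5 (0.60), Cdkn1a (0.45), Tesc (0.43), P4ha2 (0.42), Lama1 (0.40), Peg3 (0.35) and Prdm14 (0.34). The rise narrowed for Ubd (-1.30), and narrowed or was lost for Tm7sf2 (-0.50) and Wdr12 (-0.24). The direction turned and was called on day 6 for Cbr4 (-3.05), Spink1 (2.54), AF067061 (2.22), Acta2 (2.21), Hipk2 (2.01), Neto2 (2.01), Syce1 (1.99), Ccnd2 (1.79), Tagln (1.36), Fgf5 (1.24), Lef1 (1.21), Tex19.1 (1.12), Plk2 (1.05), Cox7a1 (-1.04), Jun (1.01), Nr5a2 (0.94), Perp (0.83), Eda2r (0.78), Ndn (0.61) and Spred2 (-0.52). Genes that were not called on day 1.5 but changed by day 6 were Nodal (0.57), Tfap2c (-0.50) and Lamc1 (0.29). The cultures were split on day 4, between these days, and the part of the split was not tested.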

How the results depend on the processing

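The counts of the day 1.5 comparison depended on the fit. Fitted on the 4 arrays of day 1.5 alone, 246 genes were higher and 209 lower, of which 211 and 127 lay outside the range of all controls. With the trend and robust options of eBayes 1677 genes were higher and 468 calls had grown by day 6, and with the dimmest 40% of genes left out 432 had grown. Against a mean of the control arrays of all 3 days, 2146 genes were higher and 1128 lower, of which 1694 and 814 lay outside the control range. That setting called 10 of the 1803 genes in the opposite direction. With chromosomes 8 and X left out, an alternative chosen after seeing the data, 278 lower calls lay below all controls.

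Leaving out 1 array of day 1.5 at a time gave 379 to 514 higher genes, 288 to 375 lower, 92 to 107 that grew, 254 to 294 called in the same direction on all 3 days, 313 to 412 higher calls above and 182 to 211 lower calls below all controls. The motif share was then 6.37 to 7.34% among higher genes, 6.58 to 9.09% among lower genes and 37.1 to 45.2% among lower genes that fell further. The chromosome medians were 0.129 to 0.147 for chromosome 8 and -0.151 to -0.128 for X. With the 6-letter core ACTACA alone, 16.9% of lower and 13.0% of higher genes had a match, against 11.3% of all genes. The median of chromosome 8 was 0.197 with the dimmest 40% left out, 0.111 with the mean of all probe sets and 0.143 after median centring. That of X was -0.194, -0.112 and -0.118 under the same settings, and -0.119 against the mean of all controls.

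With a replicate block 1657 genes were called, 1569 of them among the 1803, and 198 of 207 named genes kept their side of the threshold. Fitted on the day 1.5 arrays alone, 148 of the 207 did so and 59 lost their call. Those that lost it included Col4a2, Stc2, Ndufa1, Mrpl54 and Cdkn1b, which kept their call without any single array. Single genes turned direction as follows. With the mean of all probe sets Xaf1 was at 0.013 and Ctsl at -0.14. Against the mean of all controls Dnmt3l was at 0.28, Nodal 0.18, Tfap2c -0.24, Egr1 0.49, Bmp4 0.036, Ddx58 0.21, Tex19.1 0.17, Sycp3 -0.50 and Spink1 0.36. The cause was not tested. With 2 arrays a group, signal near background limits dim genes most, and 40% of genes lay under an intensity of 58.1.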
